A study of Homo sapiens with 32 samples.

Results

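Expression of 10 genes of the insulin-like growth factor (IGF) axis was examined out of 60107 genes counted, namely IGF2, IGFBP2 to IGFBP7, IGF2BP1, IGF2BP2 and IGF2BP3. They were chosen by symbol, whatever their counts, and each matched 1 Ensembl identifier of the count table. RNA came from U2OS, a human osteosarcoma line, and HEK293T, a line from human embryonic kidney that carries the large T antigen, and was sequenced with QuantSeq FWD, which reads the 3′ end of each polyadenylated transcript and marks molecules with UMIs. The 32 libraries were compared in 8 sets of 4, and all values below are in CPM, that is counts per gene for every 1000000 that fell on genes in its library, unless stated otherwise. Because a transcript gives tags from its 3′ end alone, CPM does not grow with transcript length and levels of different genes may be set side by side. In bulk RNA, fewer cells with a transcript and less of it per cell cannot be told apart.

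The U2OS sets were CPT (camptothecin, a topoisomerase 1 poison, 400 nM, libraries 26 to 29), its DMSO solvent control (30 to 33), ATM KO (2, 4, 6 and 8) and WT (1, 3, 5 and 7). The HEK293T sets were CPT (100 nM, libraries 10, 12, 14 and 16) with its DMSO control (11, 13, 15 and 17), and ATM inhibitor (18 to 21) with its DMSO control (22 to 25). Drugs were given for 24 h and cells recovered for 48 h, whereas ATM KO and WT cells grew for 72 h without a drug. ATM is a kinase that signals DNA double-strand breaks, and the knockout line was made by CRISPR and grown from picked clones, so it may carry features of a clone besides the lost gene. Libraries 18 to 21 are labelled HEK293T ATM KO, and were taken as cells given 9 µM of the inhibitor KU-55933, for which the study describes RNA sequencing. The study describes 4 independent repeats for each experiment, and p-values measure the spread between them.

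For libraries 1 to 17 the sets follow the number in the library's name and not its label. Libraries 2, 4, 6 and 8 are labelled HEK293T CPT, and 3, 5 and 7 HEK293T DMSO. Libraries 10, 12, 14 and 16 are labelled U2OS ATM KO, and 11, 13 and 15 U2OS WT. In 14 of the 32 libraries the profile went against the labelled cell line. The sets were drawn with the profiles known, so that 0 of 32 go against the line of their set is not a test of them. A cell line profile also does not show which libraries of a line were treated or knocked out. A list of 10 mesenchymal U2OS markers summed to 5146 to 10523 CPM in the U2OS sets and to 80.0 to 262 CPM in the HEK293T sets, and 8 HEK293T markers to 71.7 to 273 and to 802 to 1481 CPM. The HEK293T sum was mostly CKB, for instance 599 of 828 CPM in library 22. Between the DMSO sets 9 of 9 tested U2OS markers were higher in U2OS (edgeR adjusted p under 0.05, 32% of all genes). Of the 8 HEK293T markers 5 were lower in U2OS (30.1% of all genes) and 1 was higher. The knockout itself left no clear mark on the 3′ counts. ATM stood at 61.7, 52.9, 54.7 and 34.2 CPM in libraries 2, 4, 6 and 8 and at 57.2, 68.4, 53.4 and 63.5 CPM in 1, 3, 5 and 7 (log2 fold change −0.31, SE 0.17, edgeR adjusted p = 0.255), and a 3′ tag does not check a small deletion upstream. The comparisons that rest on libraries 1 to 17 are therefore called regrouped, and their values with the deposited labels stand in the closing section. Libraries held between 1232674 and 6362433 counts on genes (median 3359463.5), so that the smallest level taken as detected, 3 counts, lies between 2.43 and 0.472 CPM.

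IGF2 is a secreted growth factor of fetal tissue that signals through the type 1 IGF receptor (IGF1R) and the insulin receptor, while the type 2 receptor (IGF2R) takes it up for degradation. IGFBP1 to IGFBP6 bind IGFs with high affinity, hold them in the matrix or the circulation and release them when proteases such as PAPPA cut the binding protein. IGFBP7 binds IGFs weakly and is better known as a matrix and vessel protein, and several IGFBPs are secreted by senescent cells. The IGF2BPs are not binding proteins of the growth factor but cytoplasmic proteins that bind mRNAs, IGF2 mRNA among them, and keep them stable. IGF2BP1 and IGF2BP3 are oncofetal, silent in most adult tissue, and IGF2BP2 is widely expressed.

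The promoters of IGFBP5 and IGFBP3 are printed because IGFBP5 showed the deepest fall with CPT in U2OS cells, and IGFBP3 rose from counts of 0 or 1 with CPT in HEK293T cells. RefSeq windows of 300 bases, from 250 before to 50 after the start site, were found for 7 of the 10 genes (not for IGFBP7, IGF2 and IGF2BP1), on GRCh38.p14. Capitals mark TTTAAA in IGFBP5. In IGFBP3 they mark TATATA and the GC box, searched as GGGCGG, which appears here on its other strand.
IGFBP5, chr2:216695500-216695799, minus strand: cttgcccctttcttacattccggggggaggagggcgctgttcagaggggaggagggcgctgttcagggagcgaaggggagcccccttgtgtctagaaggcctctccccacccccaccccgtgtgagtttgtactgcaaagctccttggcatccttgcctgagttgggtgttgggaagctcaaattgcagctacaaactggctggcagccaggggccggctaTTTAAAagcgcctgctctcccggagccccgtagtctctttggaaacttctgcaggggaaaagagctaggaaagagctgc
IGFBP3, chr7:45921223-45921522, minus strand: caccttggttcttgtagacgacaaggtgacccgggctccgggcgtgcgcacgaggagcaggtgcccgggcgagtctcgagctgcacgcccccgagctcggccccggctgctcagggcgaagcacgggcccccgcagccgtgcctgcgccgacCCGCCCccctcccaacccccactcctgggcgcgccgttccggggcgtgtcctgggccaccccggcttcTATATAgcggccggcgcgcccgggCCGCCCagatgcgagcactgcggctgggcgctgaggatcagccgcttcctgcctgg

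Both windows hold an AT-rich stretch where a TATA box lies. TTTAAA began at −29 in IGFBP5 and is held by 12.2% of 34796 RefSeq promoters of the same length, and TATATA began at −30 in IGFBP3 and is held by 4.01%. GGGCGG matched IGFBP3 at 2 places and did not match IGFBP5, and 44.9% of promoters hold it. Of 7 motifs searched on both strands, CCAAT (34.6% of promoters), the AP-1 motif TGANTCA (7.73%), TATAAA (11.6%) and the decamer of the p53 response element (6.65%) matched neither window, which says only that these letters are not there. Some of the AT-rich motifs can overlap each other.

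The 3 IGF2BP genes share a target sequence of the let-7 miRNAs. let-7 is low in embryonic cells, where LIN28B blocks its maturation, and represses oncofetal genes in differentiated ones. The mature sequence of let-7a-5p is given with its seed, bases 2 to 8, in capitals, and 8 of 8 let-7 5p miRNAs in RefSeq share that seed. The 23-base windows of the GENCODE 29 transcripts have the matching letters CTACCTC in capitals, at the first match after the stop codon.
let-7a-5p: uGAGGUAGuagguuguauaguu
IGF2BP1: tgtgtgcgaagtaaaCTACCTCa
IGF2BP2: aacacacagaagaagCTACCTCa
IGF2BP3: tgcatttttactcaaCTACCTCa

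IGF2BP1 held 4 such matches in 6206 bases after its stop codon, a number reached by 0.643% of 622 genes with a like length (within 20%). IGF2BP2 and IGF2BP3 each held 1, and of genes with a like length 10.0% and 12.1% hold at least 1. The other 7 members held 0, in stretches from 45 bases (IGFBP3) to 4646 bases (IGFBP5). Over all 18796 genes 8.32% hold at least 1, but only 0.308% of those with a length like that of IGFBP3. A 0 covers only the 1 transcript taken for each gene. The same search gave 0 for the oncofetal gene HMGA2, in 533 bases, and 1 for LIN28B, in 1696 bases. Matches are descriptions of sequence, and miRNAs were not measured.

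The first comparison asks how the axis differs between the lines without damage, with U2OS DMSO (30 to 33) set against HEK293T DMSO (22 to 25). U2OS cells had more of IGF2 and of 4 IGFBPs, HEK293T cells had more IGFBP2, IGF2BP1 and IGF2BP3. Of 9 members tested, 6 were higher in U2OS (32% of 19739 genes tested were) and 3 lower (30.1%), at an edgeR quasi-likelihood adjusted p under 0.05, the meaning of rose and fell throughout. The threshold adds an absolute log2 fold change over 1, and 8 members passed it (39.9% of all genes). Their median log2 fold change was 2.91, and that of all genes 0.014. Culture cannot be told apart from the cell line in this comparison, and the sample labels name no sequencing run. Of all genes past the threshold 54.6% were higher in U2OS, and 45.0% when libraries were scaled by their totals alone.

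IGFBP7 was at 412, 328, 251 and 262 CPM in U2OS and at 8.97, 5.998, 9.02 and 6.81 CPM in HEK293T, 46.8-fold higher (log2 5.55, SE 0.16, edgeR adjusted p = 1.05e-24). IGFBP5, a matrix-bound binding protein of bone and muscle, was the most abundant member in U2OS at 773, 847, 681 and 719 CPM, and stood at 128, 125, 110 and 105 CPM in HEK293T (7.53-fold). IGF2 was at 57.4, 48.9, 72.7 and 77.9 CPM in U2OS and at 7.48, 8.57, 4.51 and 8.29 CPM in HEK293T (10.6-fold). The 2 sets did not overlap in these 3 genes, nor in any other member but IGFBP3, and the share of all genes without overlap was not counted. IGFBP4, which binds IGF2 until PAPPA cuts it, and IGFBP6, which prefers IGF2 over IGF1, were 17.2-fold and 13.7-fold higher in U2OS and reached at most 4.899 and 4.09 CPM in any HEK293T library.

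IGFBP2, a binding protein of fetal and tumour tissue, went the other way. It was at 90.6, 92.2, 84.4 and 80.3 CPM in HEK293T DMSO, whereas the 16 U2OS libraries held 2 counts in all and 14 of them none. Between the DMSO sets this was 1234 counts against 1, a ratio of 1191 with an exact 95% counting interval of 213 to 47089. IGFBP2 and IGFBP5 are neighbours on chromosome 2 on opposite strands, with start windows that begin at 216632578 and 216695500. IGFBP2 was near 0 in U2OS, where IGFBP5 was highest. The reverse did not hold, since IGFBP5 was at 105 to 128 CPM in HEK293T DMSO. IGF2BP1 (25.3-fold) and IGF2BP3 (18.1-fold) were lower in U2OS. Over the 16 libraries of each line, IGF2BP1 ran from 91.4 to 169 CPM in HEK293T and from 1.86 to 9.17 CPM in U2OS, and IGF2BP3 from 66.5 to 92.0 and from 0 to 5.56 CPM. IGF2BP2 was high in both, at 192, 185, 221 and 220 CPM in U2OS DMSO and 121 to 130 CPM in HEK293T DMSO (1.89-fold). IGFBP3, the main carrier of IGFs in serum, had no count in any of the 16 U2OS libraries, where 3 counts over a set would be 0.201 to 0.272 CPM.

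**Figure D1:**
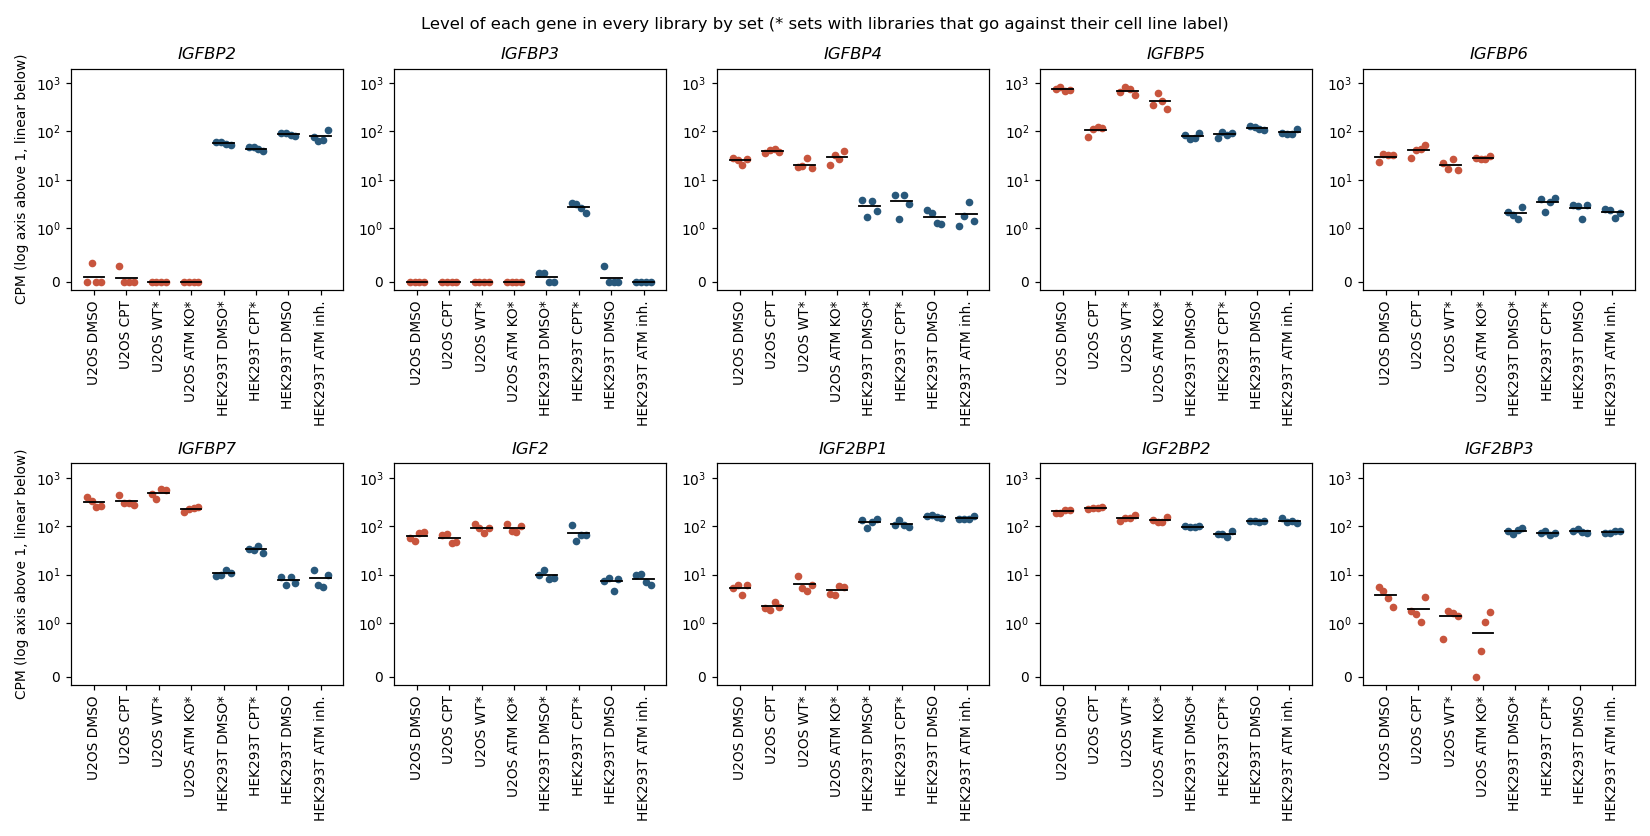
Level of each of the 10 genes in each of the 32 libraries, as CPM on an axis that is logarithmic above 1 and linear below, by set; each point is 1 library, the line is the mean of 4, red is U2OS and blue HEK293T, and an asterisk marks a set with libraries that go against their cell line label. IGFBP5 in U2OS falls from 681 to 847 CPM with DMSO to 78.0 to 123 CPM with CPT, and IGF2 in HEK293T lies at 50 to 106 CPM with CPT and at 4.51 to 12.5 CPM in the other HEK293T sets.

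The second comparison asks what a transient CPT treatment did in U2OS cells (26 to 29 against 30 to 33). These libraries carry the labels of their line, and the DMSO set also served for the comparison of lines. The binding proteins did not move together, since IGFBP5 fell steeply while IGFBP4 and IGFBP6 rose, and IGF2 itself did not pass the test. Of 8 members tested, 3 rose (16.6% of 19080 genes did), 2 fell (15.3%), and 2 passed the threshold (13.5%). The median log2 fold change was 0.13 over the members and 0.0079 over all genes, which became −0.16 over all genes when libraries were scaled by their totals alone. That scaling turned the share of higher genes among those past the threshold from 59.2% to 44.9%. CDKN1A, the p53 target p21, rose by a log2 fold change of 2.24, and damage signalling itself was not measured.

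IGFBP5 was at 78.0, 112, 123 and 115 CPM with CPT, against 681 to 847 CPM with DMSO. The highest CPT library lay far below the lowest control, and the fall was 6.27-fold (log2 −2.65, SE 0.13, edgeR adjusted p = 1.25e-16). With CPT the gene stood near its HEK293T level of 69.2 to 128 CPM. IGFBP4 stood at 36.5, 40.9, 44.0 and 37.1 CPM with CPT and at 28.1, 25.8, 20.2 and 27.2 CPM with DMSO, a rise of 1.76-fold (log2 0.81, SE 0.14, edgeR adjusted p = 2.48e-05) with no overlap. IGFBP6 stood at 27.95, 41.9, 44.0 and 52.1 CPM against 23.2, 33.7, 31.9 and 31.7 CPM. It rose by 0.62 on the log2 scale (SE 0.16, edgeR adjusted p = 0.00369), though library 26 lay inside the control range. IGFBP7 at 280 to 441 CPM did not pass the test (log2 0.28, edgeR adjusted p = 0.103). IGFBP2 and IGFBP3 were not tested, with 1 count in each set for the former and none for the latter.

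IGF2 was at 65.6, 67.9, 44.7 and 47.4 CPM with CPT, inside the control range but for 2 libraries just below it. Its log2 fold change was −0.03 with a 95% interval of −0.35 to 0.30 (edgeR adjusted p = 0.921). The IGF2BPs split. IGF2BP2 rose 1.33-fold to 229, 244, 239 and 256 CPM (log2 0.41, SE 0.11, edgeR adjusted p = 0.00582), and lost its call when libraries were scaled by their totals alone (adjusted p = 0.0922). IGF2BP1 fell 2.13-fold, from 5.25, 6.19, 3.81 and 6.01 CPM to 2.06, 1.86, 2.77 and 2.18 CPM (log2 −1.09, SE 0.32, edgeR adjusted p = 0.00819). The groups did not overlap, although the CPT set held 28 counts in all and the control 73. IGF2BP3 at 1.04 to 3.43 CPM against 2.16 to 5.56 CPM did not pass the test (log2 −0.75, edgeR adjusted p = 0.145).

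**Figure D2:**
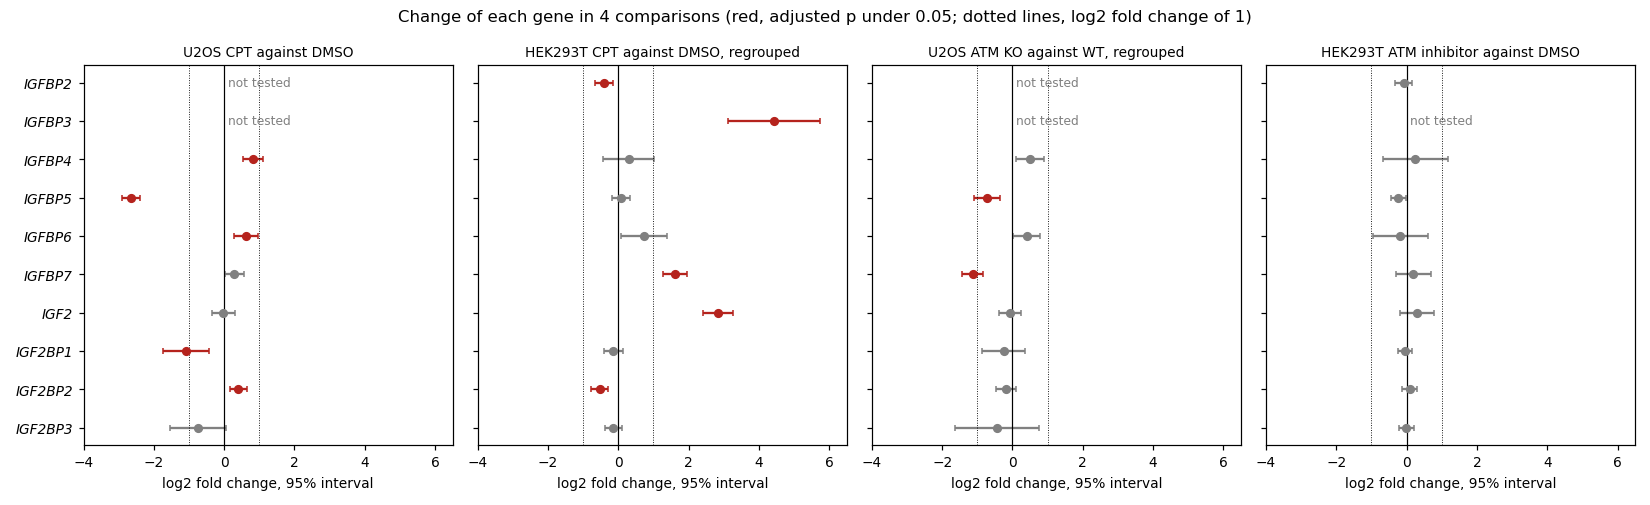
Log2 fold change of each tested member with CPT in either line, in ATM KO and with the ATM inhibitor, with 95% intervals from edgeR; red points have an adjusted p under 0.05 and dotted lines mark a log2 fold change of 1 in either direction. IGFBP5 in U2OS CPT lies at −2.65 and IGF2 in HEK293T CPT at 2.84, and no point is red with the ATM inhibitor.

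Markers of the line moved with the same contrast. With CPT, 7 of the 10 U2OS markers rose and 0 fell, and their sum was 8864 to 10523 CPM against 5887 to 7173 CPM. Of 6 HEK293T markers tested 2 rose and 1, SOX2, fell. The sum of all 8 listed was 71.7 to 88.0 CPM against 237 to 273 CPM. SOX2 alone stood at 8.06 to 13.4 CPM with CPT against 182 to 222 CPM with DMSO. Although listed as a HEK293T marker, SOX2 was lower in the HEK293T DMSO libraries, at 18.5 to 23.7 CPM, than in U2OS DMSO. The lower sum therefore does not show a fall of genes typical of HEK293T. The part of these shifts in the results above was not tested.

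The next comparison addresses the same drug in HEK293T cells (10, 12, 14 and 16 against 11, 13, 15 and 17, regrouped). Here IGF2, IGFBP3 and IGFBP7 rose, IGFBP2 and IGF2BP2 fell, and IGFBP5 did not pass the test. Of 10 members tested, 3 rose (17.6% of 19464 genes), 2 fell (17.3%), and 3 passed the threshold (14%). The median log2 fold change was 0.19 for the members and 0.041 for all genes. Grouped by the deposited labels, 0 members pass the threshold. CDKN1A rose by 2.17 on the log2 scale, close to its value in U2OS.

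IGF2 stood at 106, 50, 66.2 and 66.2 CPM with CPT and at 9.94, 12.5, 8.22 and 8.42 CPM with DMSO. Every CPT library was above every control, and the rise was 7.14-fold (log2 2.84, SE 0.21, edgeR adjusted p = 7.12e-10). The CPT libraries reached the range of untreated U2OS cells, in which IGF2 ran from 48.9 to 114 CPM. The antisense gene IGF2-AS stayed at or below 0.629 CPM in these 8 libraries, and the fusion transcript INS-IGF2, IGF1, INS and IGFBP1 had between 0 and 2 counts in each. The kit keeps strand, but the strand setting of the counting is not given in the sources used here, so that sense and antisense reads may be mixed.

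IGFBP7 rose 3.08-fold, from 9.43, 9.82, 12.2 and 10.9 CPM to 33.7, 31.8, 39.3 and 27.98 CPM (log2 1.62, SE 0.17, edgeR adjusted p = 9.36e-08). It remained far below the lowest U2OS library, at 201 CPM. IGFBP3 had 11, 10, 8 and 13 counts with CPT, or 3.37, 3.09, 2.56 and 2.04 CPM, and 1, 1, 0 and 0 counts with DMSO. Over the sets this was 42 against 2 counts, a ratio of 27.4 with an exact 95% counting interval of 7.12 to 234 (edgeR adjusted p = 9.29e-06). IGFBP3 is a known p53 target in other cells. No other set held more than 1 count of it.

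IGFBP2 fell 1.33-fold, from 60.5, 59.4, 55.6 and 52.97 CPM to 47.5, 47.2, 42.5 and 38.5 CPM (log2 −0.41, SE 0.13, edgeR adjusted p = 0.0146), with no overlap. IGF2BP2 fell 1.44-fold, from 103, 96.3, 96.4 and 100 CPM to 68.9, 68.8, 60.5 and 79.1 CPM (log2 −0.53, SE 0.12, edgeR adjusted p = 0.00101), also without overlap. IGF2BP1 and IGF2BP3, both abundant here, each had a log2 fold change of −0.15 (adjusted p = 0.392 and 0.345), with lower 95% bounds of −0.42 and −0.39. IGFBP5 at 72.6 to 96.0 CPM against 69.2 to 94.0 CPM gave 0.08, with an interval of −0.17 to 0.33 (adjusted p = 0.665). IGFBP6 (0.74, adjusted p = 0.0759) and IGFBP4 (0.30, adjusted p = 0.541) rested on 1.54 to 4.899 CPM and did not pass.

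Genes that mark U2OS cells were also higher in this CPT set, with a summed level of 172 to 262 CPM against 80.0 to 86.5 CPM in its controls, and 4 of 9 tested rose and 0 fell. CLU, the secreted chaperone clusterin, stood at 81.5 to 149 CPM against 29.1 to 45.2 CPM, ANXA1 at 29.3 to 39.6 CPM against 3.77 to 4.91 CPM, and CAV1 of caveolae at 36.4 to 43.5 CPM against 16.1 to 25.3 CPM. CD44 also rose, on 11 counts against 2. The collagen gene COL1A1, at 16.95 to 23.6 CPM against 15.1 to 21.7 CPM, and SPARC, at most 2.76 CPM, did not pass the test, and in U2OS DMSO these were at 2575 to 3477 and 862 to 1052 CPM. THBS1, LGALS3 and CRYAB did not pass either, and COL1A2 had 1 count. Of 7 HEK293T markers 3 rose and 2 fell. The part of these shifts in the rises of IGF2 and IGFBP7 was not tested.

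**Figure D3:**
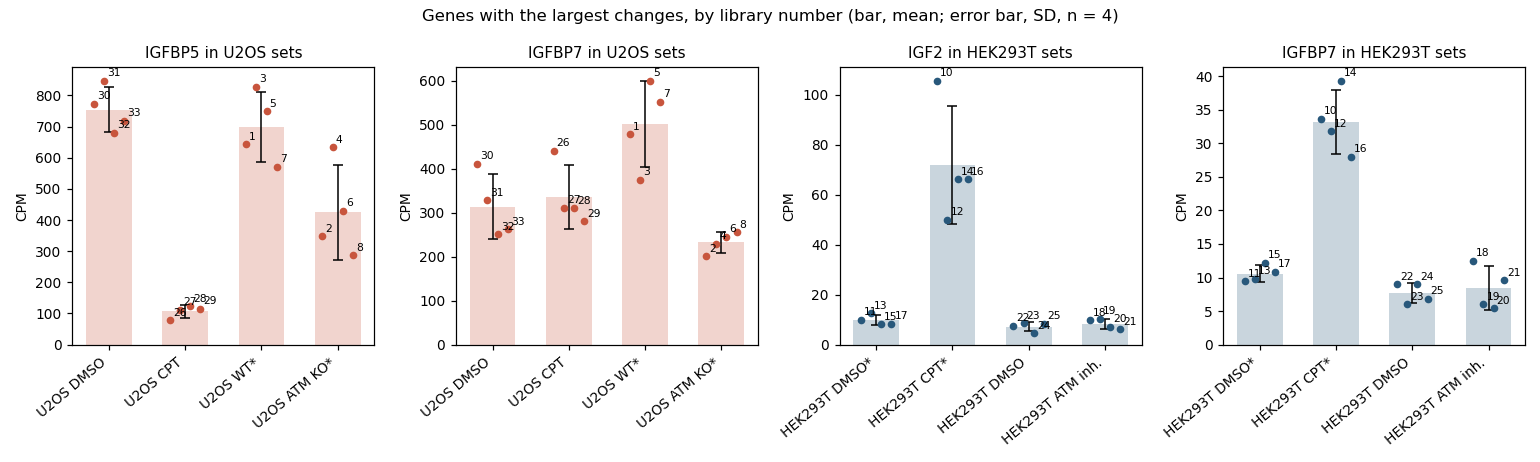
CPM of IGFBP5 and IGFBP7 in the U2OS sets and of IGF2 and IGFBP7 in the HEK293T sets; points are libraries with their numbers, bars are means and error bars the SD (n = 4), and an asterisk marks sets with libraries that go against their label. IGFBP5 separates U2OS CPT from its control, IGF2 and IGFBP7 separate HEK293T CPT from its control, and IGFBP7 separates ATM KO (201 to 255 CPM) from WT (374 to 600 CPM).

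The fourth comparison asks what loss of ATM did in U2OS cells without a drug (2, 4, 6 and 8 against 1, 3, 5 and 7, regrouped). IGFBP7 and IGFBP5 fell and no member rose. Of 8 members tested, 0 rose (6.43% of 18591 genes did), 2 fell (6.56%), and 1 passed the threshold (5.24%). The median log2 fold change was −0.22 over the members and 0.040 over all genes. IGFBP7 stood at 201, 229, 245 and 255 CPM in ATM KO and at 478, 374, 599.8 and 551 CPM in WT. The fall was 2.20-fold (log2 −1.14, SE 0.15, edgeR adjusted p = 1.33e-07), with every ATM KO library below every WT library.

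IGFBP5 was at 347, 634, 430 and 286 CPM against 644, 829, 749 and 571 CPM, a fall of 1.66-fold (log2 −0.73, SE 0.18, edgeR adjusted p = 0.00343). Library 4 overlapped the WT range, and the call was lost with DESeq2 (adjusted p = 0.159). Without library 4 IGFBP5 also passed the threshold, which made 2 members. IGFBP4 (0.50, interval 0.11 to 0.89, adjusted p = 0.0769) and IGFBP6 (0.41, 0.03 to 0.79, adjusted p = 0.159) did not pass the test. IGF2 was at 110, 79.4, 74.5 and 99.7 CPM against 114, 90.9, 73.4 and 91.3 CPM, a log2 fold change of −0.07 with an interval of −0.39 to 0.25 (adjusted p = 0.853). The 3 IGF2BPs gave −0.25, −0.19 and −0.43, in numerical order, and did not pass. Of 9 U2OS markers tested here 4 were higher and 2 lower, COL1A1 among the latter at 919 to 1382 CPM against 2508 to 3335 CPM. The clone and the loss of ATM cannot be told apart.

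The fifth comparison set the ATM inhibitor against DMSO in HEK293T cells (18 to 21 against 22 to 25), and the DMSO set also served for the comparison of lines. None of the 9 members tested passed the test with edgeR (adjusted p 0.880 to 0.995), and 1 member, IGFBP5, had an unadjusted p under 0.05. Over all 18413 genes tested 0% rose, 0.00543% fell (1 gene) and 0% passed the threshold, while 1019 genes had an unadjusted p under 0.05. With DESeq2 or the likelihood ratio test 0 members passed the threshold. IGFBP5 stood at 90.9, 89.8, 88.2 and 113 CPM against 128, 125, 110 and 105 CPM (log2 −0.23, interval −0.45 to −0.02, unadjusted p = 0.0324). Its groups overlapped through library 21. IGF2 at 6.17 to 10.2 CPM against 4.51 to 8.57 CPM gave 0.30, with an interval of −0.20 to 0.79. The 3 IGF2BPs lay within −0.25 to 0.31 by their 95% intervals, IGFBP2 within −0.33 to 0.16, and IGFBP7 within −0.30 to 0.69. The median was −0.014 for the members and 0.0026 for all genes.

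The difference between the CPT effects in the lines was tested in 1 fit of the 16 CPT and DMSO libraries, as U2OS minus HEK293T. The libraries are those of the CPT comparisons above, so the values are not additional evidence for either effect. Doses were 400 and 100 nM, and dose, experiment and line cannot be told apart. Of 8 members compared, 1 difference was positive (9.86% of 22363 genes), 4 were negative (10.5%), and 3 passed the threshold (11.9%). The median difference was −0.77 for the members and −0.064 for all genes. Scaling by totals alone took the share of positive differences past the threshold from 43.4% to 28.2% of genes. IGFBP2 and IGFBP3 were left out, because their U2OS sets held at most 1 count each.

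IGF2 gave a difference of −2.85 on the log2 scale (SE 0.27, edgeR adjusted p = 3.78e-11), with a rise in HEK293T cells and no call in U2OS cells. IGFBP5 gave −2.72 (SE 0.18, adjusted p = 1.02e-15), with a fall in U2OS cells and no call in HEK293T cells. For both genes the level in CPT-treated cells of 1 line lay near that of the other line, IGFBP5 at 78.0 to 123 and 72.6 to 96.0 CPM, IGF2 at 44.7 to 67.9 and 50 to 106 CPM. IGFBP7 gave −1.33 (adjusted p = 4.83e-06) and IGF2BP1 −0.94 (adjusted p = 0.0344). The call of IGF2BP1 was lost in 7 edgeR fits with 1 library left out (adjusted p up to 0.0972). IGF2BP2 rose in U2OS and fell in HEK293T cells, a difference of 0.94 (adjusted p = 3.95e-05). The differences of IGFBP4 (0.52, 95% interval −0.18 to 1.22), IGFBP6 (−0.12, −0.82 to 0.57) and IGF2BP3 (−0.60, −1.33 to 0.13) did not pass the test.

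**Figure D4:**
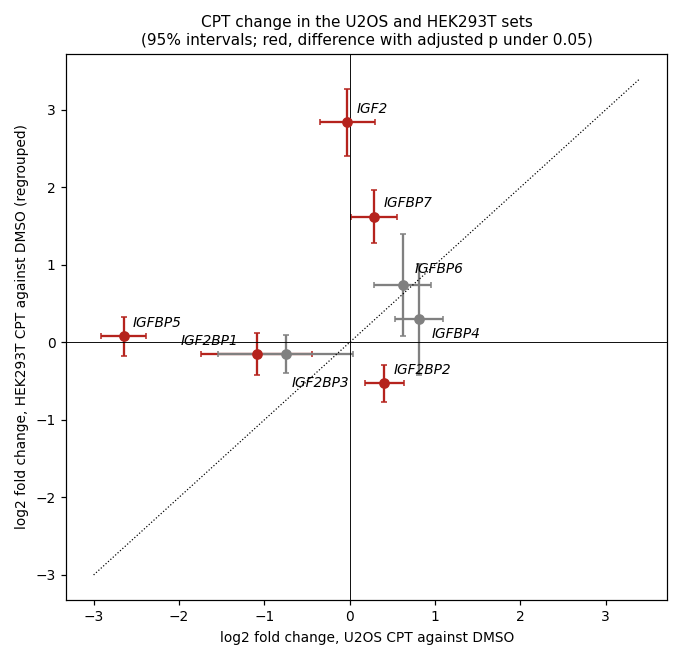
Log2 fold change with CPT in U2OS (400 nM, horizontal axis) and in HEK293T (regrouped, 100 nM, vertical axis) for the 8 members tested in both, with 95% intervals, the dotted line of equal change, and red where the difference has an adjusted p under 0.05. IGFBP5 lies at −2.65 and 0.08, IGF2 at −0.03 and 2.84, and IGF2BP2 at 0.41 and −0.53.

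In U2OS cells the CPT effect was also compared with the ATM KO effect in 1 fit (26 to 33 and 1 to 8). Of 8 members, 2 differences were positive (9% of 20539 genes), 1 was negative (8.69%), and 2 passed the threshold (10.8%). IGFBP5 fell in both, and by more with CPT (difference −1.91, edgeR adjusted p = 4.19e-09). IGFBP7 fell in ATM KO and did not pass the test with CPT (difference 1.42, adjusted p = 3.37e-07). IGF2BP2 differed by 0.60 (adjusted p = 0.0138), which was lost when libraries were scaled by their totals alone (adjusted p = 0.194). IGF2 differed by 0.04 with an interval of −0.41 to 0.50. The median difference was 0.13 over the members and −0.045 over all genes, and the share of positive differences past the threshold was 51.8% of genes, or 34.3% with scaling by totals alone. The control sets differed between these experiments, since IGF2 was at 48.9 to 77.9 CPM with DMSO and at 73.4 to 114 CPM in WT, and IGFBP7 at 251 to 412 and 374 to 600 CPM.

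Other genes of the axis were taken from a list of 47, made of ligands, receptors with their adaptors, further binding proteins, proteases with their inhibitors, and RNA partners of the IGF2BPs. With CPT in U2OS cells 12 of 36 tested rose, 8 fell and 9 passed the threshold (median log2 fold change 0.21). In HEK293T cells 10 of 36 rose, 12 fell and 13 passed (median 0.047). In ATM KO 4 of 35 rose, 6 fell and 2 passed (median 0.032), and with the ATM inhibitor 0 of 37 did (median −0.10). Between the lines 22 of 38 were higher in U2OS, 11 lower, and 28 passed (median 1.22). The background shares and the medians of all genes are those given above for each comparison.

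Receptors and adaptors were measured in both lines. In U2OS cells with CPT 3 of 7 tested rose (16.6% of all genes did), 2 fell (15.3%) and 0 passed the threshold. IGF1R (log2 0.50, edgeR adjusted p = 6.82e-04) and IGF2R (0.77, adjusted p = 5.46e-05) were among those that rose. INSR, the insulin receptor (−0.73), and its adaptor IRS1 (−0.51) fell. In HEK293T cells 6 of 9 tested receptors and adaptors fell (17.3% of all genes did) and 1 rose, the adaptor IRS2 (log2 0.46, adjusted p = 0.0107). IGF1R fell by 0.60 on the log2 scale and IRS4, an adaptor abundant in embryonic kidney lines, fell by 1.79, while IGF2R (0.16) and SHC1 (0.15) did not pass the test. For IGF1R the difference between the lines was 1.11 on the log2 scale.

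Of the proteases and their inhibitors, PAPPA rose in 3 comparisons and STC1 moved in opposite directions in the lines. PAPPA, the protease that cuts IGFBP4 and IGFBP5, rose by 2.44 on the log2 scale with CPT in U2OS (11.2 to 18.1 CPM against 2.06 to 3.12 CPM) and by 1.58 in ATM KO (14.9 to 29.7 CPM against 4.23 to 9.54 CPM). Both sets were clear of their controls. In HEK293T cells it also rose with CPT (log2 2.99), but on 9 counts in the CPT set and 1 in its control. STC1, a stanniocalcin that inhibits PAPPA, fell by 1.87 on the log2 scale with CPT in U2OS and rose by 2.38 in HEK293T, a difference of −4.24 (edgeR adjusted p = 6.33e-15). STC2, the second stanniocalcin, was at 348 to 428 CPM in HEK293T DMSO and had 4 counts over the U2OS DMSO set. With CPT in HEK293T it fell by 1.81 on the log2 scale.

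Among further binding proteins, ESM1, a secreted proteoglycan with an IGFBP-type domain, rose from 1 or 2 counts per library (0.240 to 0.617 CPM) to 20.3 to 44.0 CPM with CPT in U2OS (log2 6.24, edgeR adjusted p = 1.46e-15). CCN1, a matricellular protein with the same domain, rose with CPT in U2OS (1.23) and HEK293T (1.18) and fell in ATM KO (−1.18). CCN3 was at 219 to 358 CPM in U2OS DMSO and 0.296 to 1.25 CPM in HEK293T DMSO (log2 8.78), and the CPT effects differed by −4.76. MMP2, a matrix protease that also cuts IGFBPs, had a difference of −2.68. Of mRNAs that IGF2BPs bind, CD44, also a U2OS marker, rose by 2.72 on the log2 scale with CPT in U2OS, from 60.5 to 70.5 CPM up to 370 to 396 CPM. MYC rose there by 1.32 and fell by 3.27 in HEK293T cells, a difference of 4.597. HMGA2, another oncofetal gene, fell in both (−0.52 and −0.87). CPT minus ATM KO was above the threshold for ESM1 (5.76), CCN1 (2.42) and CD44 (2.17) and below it for STC1 (−2.77).

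**Figure D5:**
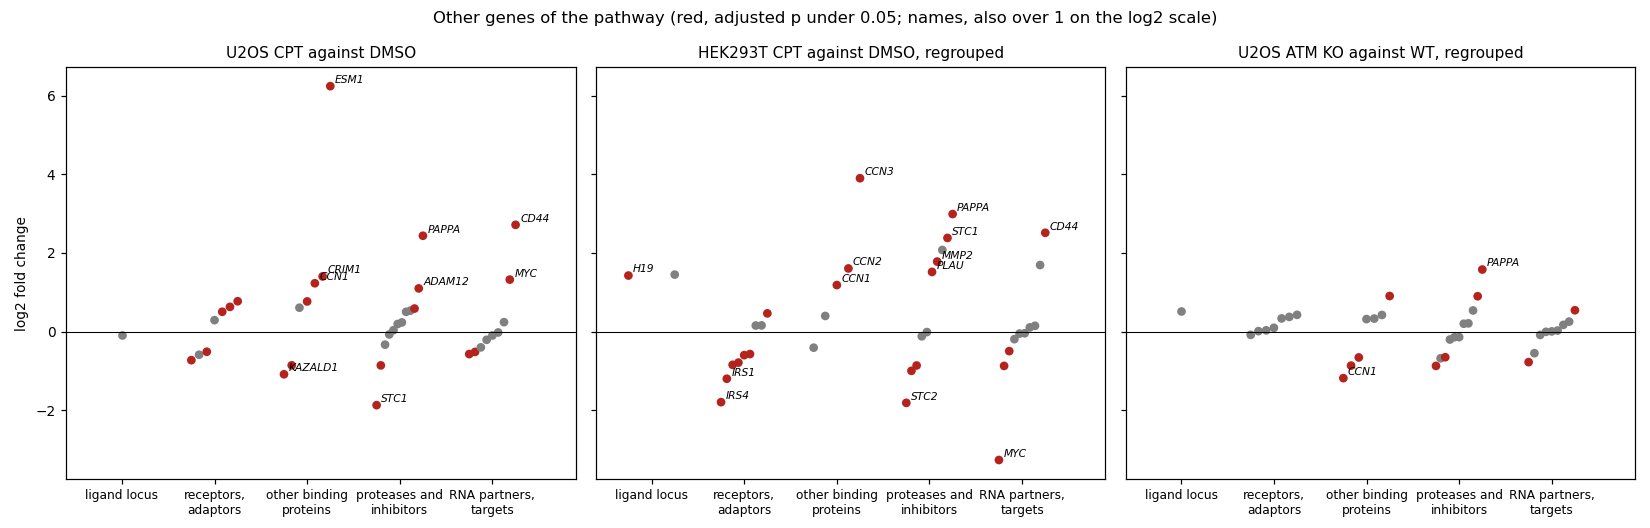
Log2 fold change of the other genes of the axis with CPT in U2OS, with CPT in HEK293T and in ATM KO, by kind of gene; each point is a gene tested, red points have an adjusted p under 0.05 and named ones also pass the fold cutoff. PAPPA is at 2.44 in U2OS CPT and 1.58 in ATM KO, and STC1 at −1.87 in U2OS CPT and 2.38 in HEK293T CPT.

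The gene with the profile most like each member was taken as the highest Pearson r of log2 CPM over the 32 libraries among 9573 genes over 10 CPM on average. The values are descriptions, since the libraries share 2 cell lines that set most of the spread. For IGFBP5 it was TRIB2 (r = 0.978), and the likeness was also high within the 16 U2OS libraries (0.960) and within the 16 HEK293T libraries (0.766). For IGF2BP2 it was SLC39A11 (0.962, within lines 0.873 and 0.926) and for IGFBP7 it was NES (0.986, 0.724 and 0.812). For IGF2 it was SAMD9 (0.953), which followed it in HEK293T (0.937) and less in U2OS (0.323). IGFBP2 was closest to ELOVL2 (0.997), with −0.097 within U2OS, where IGFBP2 had almost no counts. IGFBP4 (KRT75), IGFBP6 (APOL1), IGF2BP1 (ITGA8) and IGF2BP3 (HEY1) had r from 0.976 to 0.989 overall and from 0.459 to 0.787 within a line.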

How the data were processed

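The authors deposited raw counts of UMI-tagged reads per gene, without normalization. The submitters' processing notes name the Lexogen QuantSeq FWD UMI pipeline 2.3.1 and the BlueBee Genomics Platform 1.10.18. Build, annotation and strand setting are not given in the sources used here. The 92 spike-in rows and 5 summary rows (10.9% to 40.6% of counts) were left out. The share of the summary rows differed between sets. It was 17.0% to 19.8% in HEK293T CPT and 10.9% to 12.4% in its DMSO control. In U2OS it was 31.6% to 40.6% with CPT and 34.3% to 39.3% with DMSO. Its part in the results was not tested. Symbols were matched for 56104 identifiers through a gene name table and for 427 through GENCODE 29. Each comparison was fitted with edgeR 4.0.16 in R 4.3.3 (TMM, quasi-likelihood, keeping genes that reached over 1 count in 2 libraries or more, Benjamini-Hochberg adjustment over all genes tested), after the study's filter and cutoffs. Printed CPM values use the counts on genes without TMM, and fold changes use TMM. DESeq2 1.42.0 was an alternative. The procedure was tested on simulated counts with the same spread for every gene and changes only in genes with higher counts. The simulation therefore does not cover genes near the floor. The exact intervals of count ratios and the detection limits cover counting error only, while edgeR's standard errors and intervals include the spread between libraries. Replicates differed by more than sampling noise (mean chi-square 2.01 to 29.0). This does not show that they came from separate cultures, because library preparation can add such noise. Each library was treated as an independent repeat on the study's word.

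All 10 members are named. Of the other genes of the axis, at most 4 per comparison were named by size of change among those past the threshold with a mean log2 CPM over 3. Other genes named with values (receptors, CCN1 in other comparisons, HMGA2, CDKN1A, COL1A1 and the like) were chosen after their values were seen. The members, sets and lists were chosen with earlier results of these data known. The alternatives were RLE and library-size scaling, the likelihood ratio test, DESeq2, filterByExpr, no filter, all libraries in 1 fit, no fold cutoff, the deposited labels, other controls and each library left out, of which library-size scaling was added after seeing the data.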

Additional observations from a re-analysis of the deposited data

Results flagged for a closer look

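In 3 of 69 groups of 4 libraries the highest or lowest library stood apart by Dixon's criterion, where chance gives about 1 in 20 groups. IGFBP5 in library 21 of the ATM inhibitor set was at 113 CPM, its gap to the next library 0.891 of the set's range. IGF2BP1 in the same library was at 165 CPM (0.910). IGFBP6 in library 24, an HEK293T DMSO control, was at 1.503 CPM (0.909). These libraries enter the comparison with the ATM inhibitor, in which no member passed the test.

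CPT effects that differed between U2OS and HEK293T cells by the test of the difference were those of IGF2 (−2.85 on the log2 scale), IGFBP5 (−2.72), IGFBP7 (−1.33), IGF2BP1 (−0.94) and IGF2BP2 (0.94). Line, dose and experiment cannot be told apart in them, and that of IGF2BP1 was lost in 7 fits with 1 library left out. In U2OS cells the effects of CPT and of ATM KO differed for IGFBP5 (−1.91), IGFBP7 (1.42) and IGF2BP2 (0.60).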

How the results depend on the processing

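Of the alternatives to the members' fold changes, 993 kept direction and side of the test, 35 turned direction, 14 lost and 7 gained a call. Without a cutoff on fold change 5 members passed in U2OS CPT, 5 in HEK293T CPT, 2 in ATM KO and 5 in the difference of CPT effects, in place of 2, 3, 1 and 3. With 1 library left out in turn the counts ran from 1 to 3 (U2OS CPT; 1 without library 33, where IGF2BP1 drops), 1 to 2 (ATM KO; 2 without library 4) and 3 to 5 (difference of CPT effects; 5 without library 32). With the deposited labels 0 members passed in HEK293T CPT, IGFBP5 (−0.38) and IGFBP7 (−0.72) turned, and IGF2 (0.46) and IGF2BP2 (−0.04) lost their calls, as such groups mix the lines. In the labelled ATM KO comparison IGFBP4 (−0.91), IGFBP6 (−0.97), IGF2 (0.85), IGF2BP1 (0.28) and IGF2BP3 (0.30) turned, and IGFBP5 (−1.56) and IGFBP7 (−2.20) lost their calls, while IGFBP3 (4.26, adjusted p = 0.0109) was the 1 member past the threshold. Against all 8 libraries labelled HEK293T DMSO the ATM inhibitor values turned for IGFBP2 (0.70), IGFBP4 (−2.44), IGFBP7 (−4.82), IGF2 (−2.35), IGF2BP1 (0.62), IGF2BP2 (−0.16) and IGF2BP3 (0.59), with adjusted p from 0.527 to 0.786. Those controls include libraries 3, 5 and 7, which are in the U2OS WT set used here, so they mix the lines. With library totals alone, IGF2 in CPT minus ATM KO became −0.16. Leaving out 1 library turned members that had not passed a test, whose ranges were −0.16 to 0.12 (IGF2, U2OS CPT), −0.20 to 0.45 (IGFBP4), −0.11 to 0.34 (IGFBP7), −0.0045 to 0.16 (IGF2BP2) and −0.048 to 0.045 (IGF2BP3, all ATM inhibitor), −0.19 to 0.069 (IGF2, ATM KO), −0.28 to 0.044 (IGFBP6, difference of CPT effects), and −0.0089 to 0.39 (IGFBP6), −0.095 to 0.16 (IGF2) and −0.75 to 0.13 (IGF2BP3) in CPT minus ATM KO.

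Calls were gained by IGFBP7 (without 29 or 30) and IGF2BP3 (without 29) in U2OS CPT, IGFBP6 in HEK293T CPT (filterByExpr, or without 12) and IGFBP4 in ATM KO (without 2 or 5). IGF2BP1 lost its difference of CPT effects without 12, 13, 26, 27, 29, 31 or 33 (adjusted p 0.0532 to 0.0972). Over all genes, filterByExpr gave 1652 in place of 2569 past the threshold (U2OS CPT), 1461 of 2718 (HEK293T CPT), 644 of 974 (ATM KO) and 5090 of 7872 (lines). Without the fold cutoff there were 6091, 6785, 2415 and 12256, and 4544 and 3634 for the differences. With the labels there were 39 (HEK293T CPT) and 631 (ATM KO), and the ATM inhibitor went from 0 to 14 genes without library 21. Scaling by totals alone moved the median log2 fold change of all genes from 0.0079 to −0.16 (U2OS CPT), 0.014 to −0.21 (lines), −0.064 to −0.26 and −0.045 to −0.24 (differences), and the share of calls that were higher from 59.2% to 44.9%, 54.6% to 45.0%, 43.4% to 28.2% and 51.8% to 34.3%. The cause of these shifts was not tested. No paired analysis was possible because each replicate number belongs to a single library and no label pairs libraries. Depth limits IGFBP3, and IGFBP2 and IGF2BP3 in U2OS, to values near the floor.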
